A study of Mus musculus with 6 samples.

Results

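Aif1 and Ms4a7 are 2 of the 5294 genes on the probe panels with which 6 mouse sections were imaged, and both were on each panel and so measured in every section. The genes were chosen by their raw counts in these sections, namely the level per section, the level in cells with and without at least 3 transcripts of C1qa, C1qb and C1qc together, and the difference between the spleen of a phenylhydrazine-treated mouse and an untreated spleen. Those values are therefore given as a description. There was 1 section per condition, so no test between conditions was possible, and every interval is a 95% interval for counting error only, exact Poisson for a level, exact binomial for a share and conditional binomial for a ratio.

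Aif1 encodes IBA1, a calcium- and actin-binding protein that takes part in membrane ruffling and phagocytosis and is widely stained to see macrophages and microglia. Ms4a7 encodes a membrane protein of the MS4A family, which also holds the B cell antigen CD20, and is used as a marker of macrophages and of monocytes that turn into them. C1qa, C1qb and C1qc encode the chains of C1q, the recognition molecule that opens the classical complement pathway and is made largely by tissue macrophages. Macrophages stand at the center of erythroblastic islands, where they hold maturing erythroblasts and take up expelled nuclei, and those of the splenic red pulp clear worn erythrocytes and recycle their iron. Phenylhydrazine (PHZ) lyses erythrocytes, and the mouse spleen answers such anemia with its own erythropoiesis.

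All sections were 5 µm thick and came from wild-type C57BL/6 mice: liver at embryonic days 14.5 (E14.5) and 13.5 (E13.5), bone marrow at postnatal day 8 (P8) and at 89 weeks, and the spleens of an untreated adult and of an adult given PHZ at 40 mg/kg in 2 injections per day for 2 days. The E14.5 liver and P8 marrow shared a slide, both spleens shared another, and these sections were hybridized with the smaller panel, whereas the E13.5 liver and 89-week marrow were imaged later with the larger panel of 5050 genes. Aif1 had 7 probe sets on the smaller and 2 on the larger panel, and Ms4a7 had 8 and 2, so levels were not compared between panels or between the genes. Cells with at least 5 detected genes numbered 117323 in the E14.5 liver, 50523 in the P8 marrow, 108327 and 94492 in the untreated and PHZ-treated spleens, 5254 in the E13.5 liver and 140707 in the 89-week marrow, with medians of 62 to 191 transcripts per cell. The negative control probe with the most transcripts in a section gave 1 to 105, of which Aif1 gave at least 133 times and Ms4a7 at least 7 times the number in every section. Levels are given as CPM, a gene's counts in the cells named divided by all gene counts of those cells and scaled to 1e6.

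On the smaller panel Aif1 was highest in the untreated spleen, with 75615 transcripts and 7305 CPM (7253 to 7357). It reached 2384 CPM in the PHZ-treated spleen (2356 to 2413), 828 CPM in the P8 marrow (806 to 850.2) and 687 CPM in the E14.5 liver (676 to 698). The intervals of these sections did not overlap, but the order of the last pair depended on the scale, since Aif1 averaged 0.123 transcripts per cell in the E14.5 liver and 0.105 in the P8 marrow. On the larger panel Aif1 had 343 CPM in the 89-week marrow (333 to 353) and 148 CPM in the E13.5 liver (128 to 169.8), an order that turned per cell, with 0.0318 transcripts (0.0309 to 0.0327) and 0.0390 (0.0339 to 0.0447).

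Ms4a7 had the same order of CPM in the sections of the smaller panel, with other distances between them. The untreated spleen held 12431 transcripts at 1201 CPM (1179.9 to 1222), the PHZ-treated spleen 949 CPM (931 to 967), the P8 marrow 539 CPM (521 to 557) and the E14.5 liver 60.9 CPM (57.6 to 64.3). The E14.5 liver thus stood far below the marrow on its own slide for Ms4a7 but close to it for Aif1. For each Ms4a7 transcript there were 11.3 Aif1 transcripts in the E14.5 liver, 1.53 in the P8 marrow, 6.08 without and 2.51 with PHZ in the spleen, a ratio that does not depend on the total. On the larger panel Ms4a7 had 50.2 CPM in the 89-week marrow (46.4 to 54.2) and 7 transcripts in the whole E13.5 liver, or 5.06 CPM (2.03 to 10.4). Organ, age, animal and PHZ treatment cannot be told apart in these differences, nor can the slide where sections lay on different slides. For the 89-week marrow the same holds for tissue preparation. The paper describes adult marrow as fixed in paraformaldehyde, frozen and cryosectioned before paraffin embedding, and other fresh samples as put directly in formalin.

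Cells were then divided by C1q. Cells with at least 3 transcripts of C1qa, C1qb and C1qc, called C1q-positive here, made up 12.8% of the cells in the E14.5 liver, 11.5% in the P8 marrow, 36.0% in the spleen without and 35.2% in that with PHZ, 5.73% in the E13.5 liver and 2.90% in the 89-week marrow. Both genes were higher in C1q-positive than in C1q-negative cells of all 6 sections, with a median log2 ratio of 2.23 for Aif1 and 2.84 for Ms4a7 over sections.

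In the E14.5 liver Aif1 had 3199.5 CPM in C1q-positive and 305 CPM in C1q-negative cells, a 10.5-fold difference (10.2 to 10.9). The P8 marrow had 2242 and 581 CPM (3.86-fold, 3.65 to 4.08), and the 89-week marrow 1573 and 276 CPM (5.70-fold, 5.32 to 6.11). The E13.5 liver had 1035 and 73.6 CPM (14.1-fold, 10.6 to 18.7), from 111 and 94 transcripts. The spleens stood apart from these sections, with smaller differences. Aif1 had 9370.0 and 5485 CPM in the untreated spleen, 1.71-fold (1.68 to 1.73), and 3751 and 1300.4 CPM in the PHZ-treated spleen, 2.88-fold (2.81 to 2.96).

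Ms4a7 had 270.1 CPM in C1q-positive and 29.1 CPM in C1q-negative cells of the E14.5 liver, 9.29-fold (8.30 to 10.4). The values were 2010.3 and 282 CPM in the P8 marrow (7.12-fold, 6.65 to 7.62) and 274 and 38.0 CPM in the 89-week marrow (7.21-fold, 6.05 to 8.57). The spleens again had the smallest differences, with 1714 and 748 CPM in the untreated (2.29-fold, 2.21 to 2.38) and 1633 and 407 CPM in the PHZ-treated section (4.01-fold, 3.84 to 4.20). In the E13.5 liver the ratio rested on 5 and 2 transcripts and was 29.8 with an interval of 4.88 to 313. In the P8 marrow and both spleens the fold of Ms4a7 was above that of Aif1 with no overlap of the intervals, and in the other sections the intervals overlapped. In the untreated spleen that order turned with other macrophage genes as the gate, at log2 ratios of 0.99 for Aif1 and 0.93 for Ms4a7, and against C1q-negative cells over 20 µm away, at 0.94 and 0.84. With other macrophage genes as the gate Ms4a7 in the E14.5 liver had a log2 ratio of 1.44, below that of 2.08 in the PHZ-treated spleen, so the place of the spleens also depended on the gate.

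A share of each gene lay outside the C1q-positive cells. C1q-positive cells held 61.5% of the Aif1 transcripts in the E14.5 liver, 40.3% in the P8 marrow, 60.1% in the untreated spleen, 69.6% in the PHZ-treated spleen, 54.1% in the E13.5 liver and 23.7% in the 89-week marrow. For Ms4a7 the shares were 58.5%, 55.4%, 66.9%, 76.1%, 71.4% and 28.2% in the same order. Of the transcripts of all genes, C1q-positive cells held 13.2%, 14.9%, 46.8%, 44.2%, 7.74% and 5.18%, so both genes lay above that share in every section, least so in the untreated spleen.

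Aif1 was higher at each step up in the number of C1q transcripts in a cell, in all 6 sections. Its level in the E14.5 liver was 212 CPM in cells with no C1q transcript, 606 with 1 or 2, 1659 with 3 to 5, 3046 with 6 to 9 and 7067 with at least 10. In the P8 marrow it was 447, 881, 1698, 2799 and 3927 CPM over the same steps. In the untreated spleen it began far higher, at 4787 CPM without C1q, and ended at 10625 CPM, while in the PHZ-treated spleen it ran from 1043 to 5524 CPM. The ratio of the last to the first step was thus smallest in the untreated spleen.

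Ms4a7 in the P8 marrow was 186, 499, 1301, 2289 and 5031 CPM over the 5 steps, and in the last of them its level was the highest of the 4 sections on this panel. In the E14.5 liver it ran from 23.3 to 726 CPM. The untreated spleen had 748 CPM with no C1q transcript and 748 with 1 or 2, and 2433 CPM in the last step. In the PHZ-treated spleen it was 289 CPM with no C1q transcript and 2463 CPM with at least 10. On the larger panel Ms4a7 was not highest in the last step, with 520 CPM at 6 to 9 C1q transcripts (404 to 659) and 400 CPM at 10 or more (261 to 586) in the 89-week marrow, and with 2 transcripts in each of these steps in the E13.5 liver. Among cells with at least 10 C1q transcripts, the E14.5 liver was therefore above the P8 marrow for Aif1 and below it for Ms4a7, with no overlap of the intervals in either case. C1q-positive cells had more transcripts in all than C1q-negative cells, which the CPM scale takes into account. The medians were 171 and 167 in the E14.5 liver, 147 and 108 in the P8 marrow, and 110 and 72.5 in the untreated spleen. They were 135 and 89 in the PHZ-treated spleen, 252 and 186 in the E13.5 liver and 134 and 60 in the 89-week marrow.

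**Figure D1:**
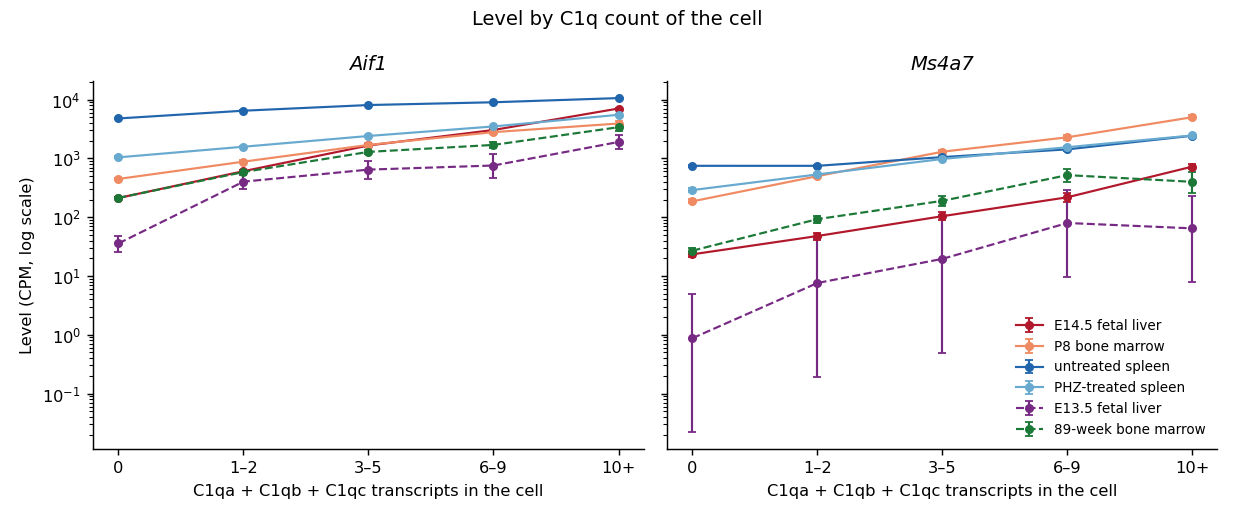
The level of Aif1 (left) and Ms4a7 (right) in CPM on a log axis is plotted against the number of C1qa, C1qb and C1qc transcripts in the cell, with 1 line per section, 95% Poisson intervals as bars and dashed lines for the larger panel. Among the sections of the smaller panel, Aif1 in the untreated spleen starts highest, at 4787 CPM. Among the same sections, Ms4a7 in cells with at least 10 C1q transcripts is highest in the P8 marrow, at 5031 CPM.

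The spleens were compared next. Aif1 was 3.06-fold lower in the PHZ-treated spleen over all cells, a log2 ratio of −1.62 (−1.64 to −1.60). Of the 343 genes with at least 1000 transcripts over both spleens, 48.1% were at least 1.5-fold lower and 22.4% at least 1.5-fold higher after PHZ, with a median log2 ratio of −0.56, and 65 of them had a lower ratio than Aif1. Ms4a7 went from 1201 to 949 CPM, a log2 ratio of −0.34 (−0.38 to −0.30), and lay inside the 1.5-fold band. Per cell, Ms4a7 averaged 0.115 transcripts in both spleens, whereas Aif1 went from 0.698 to 0.288 per cell. Per mm2 of tissue Ms4a7 was lower too, at 2662 and 1537 transcripts, in sections with 23196 and 13394 cells per mm2.

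The separation was also present inside the C1q-positive cells. There Aif1 went from 9370.0 to 3751 CPM, a log2 ratio of −1.32 (−1.35 to −1.30), and Ms4a7 from 1714 to 1633 CPM, a log2 ratio of −0.07 (−0.11 to −0.03). In these cells 275 genes reached 1000 transcripts, of which 45.1% were at least 1.5-fold lower and 27.3% at least 1.5-fold higher after PHZ. The direction of Ms4a7 in C1q-positive cells turned with the scale, at a log2 ratio of 0.22 per cell and 0.03 when the 5 erythroid genes were left out of the total, and no direction is drawn from it. Aif1 was lower in C1q-positive cells under each of those scales, at −1.03 and −1.22.

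Both genes were lower in C1q-negative cells after PHZ. Aif1 went from 5485 to 1300.4 CPM (log2 ratio −2.08, −2.11 to −2.04) and Ms4a7 from 748 to 407 CPM (−0.88, −0.95 to −0.81). Of the 308 genes with at least 1000 transcripts in these cells, 52.9% were at least 1.5-fold lower and 22.4% at least 1.5-fold higher, with a median log2 ratio of −0.64. Of them 47 had a lower ratio than Aif1 and 134 a lower ratio than Ms4a7, which thus lay nearer the middle of the genes. The number of Aif1 transcripts for each Ms4a7 transcript went from 5.47 to 2.30 in C1q-positive and from 7.33 to 3.20 in C1q-negative cells. After every cell was thinned to 50 transcripts, the share of C1q-positive cells with Aif1 was 36.9% without and 17.6% with PHZ, and that with Ms4a7 was 7.65% and 8.15%. Without thinning the shares were 61.6% and 36.0% for Aif1 and 16.4% and 19.4% for Ms4a7.

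The difference in Aif1 was not of 1 size across the steps of C1q. With at least 10 C1q transcripts Aif1 had 10625 CPM without and 5524 CPM with PHZ, and with none it had 4787 and 1043 CPM. Ms4a7 had 2433 and 2463 CPM in cells with at least 10, with overlapping intervals, and 748 and 289 CPM in cells with none.

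**Figure D2:**
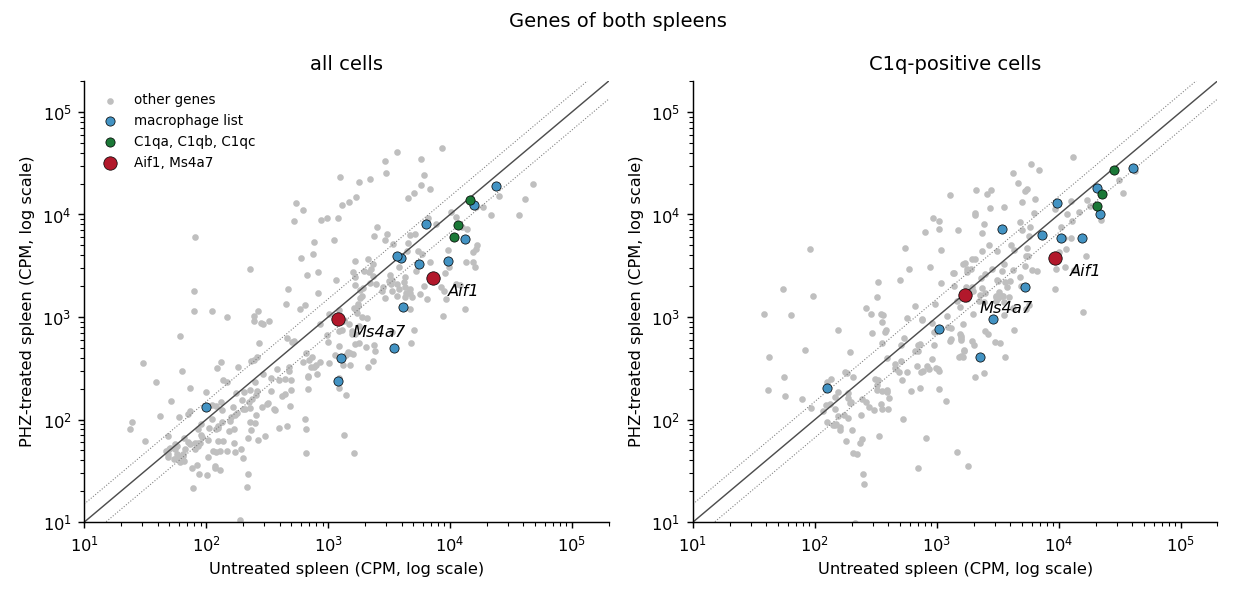
Each point is a gene with at least 1000 transcripts over both spleens, with its CPM in the untreated spleen on the x axis and in the PHZ-treated spleen on the y axis, both on log scales, for all cells (left) and C1q-positive cells (right). The solid line marks equal levels and the dotted lines a 1.5-fold difference, and Aif1 lies below the band in both plots while Ms4a7 lies inside it.

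Composition moved together with these levels. The summed level of the 5 erythroid genes used as markers, among them the anion exchanger Slc4a1 and the transcription factor Klf1, was 7760.3 CPM without and 103228 CPM with PHZ, and inside C1q-positive cells it was 12728 and 77600.2 CPM. The 6 T cell genes went from 27717 to 5831 CPM with none of the 6 higher, and inside C1q-positive cells from 18176 to 5454 CPM with 1 of 6 higher. The 3 NK cell genes went from 4691 to 603 CPM and inside C1q-positive cells from 4694 to 459.9 CPM, with none higher in either. The 7 monocyte and dendritic genes went from 23897 to 12562 CPM with 1 of 7 higher, and inside C1q-positive cells from 23192 to 16591 CPM with 3 of 7 higher. The 3 granulocyte progenitor genes went from 544 to 2526 CPM, and inside C1q-positive cells from 801 to 1651 CPM, with all 3 higher in both. Over all cells the 5 stromal genes went from 10352 to 16298 CPM with 3 of 5 higher, and the 6 endothelial genes from 8267 to 4294 CPM with none higher. No gene of these lists was at 0 in either spleen, and the part of these cells in the lower level of Aif1 was not tested.

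Other macrophage genes of the panel gave the setting for both members. Of 14 listed macrophage genes, 13 reached 1000 transcripts over both spleens. Over all cells 7 of the 13 were at least 1.5-fold lower after PHZ (48.1% of all genes compared were), 6 lay in between and none was higher, with a median log2 ratio of −0.78 against −0.56 for all genes compared. In C1q-positive cells 6 were lower (45.1% of all genes compared), 2 were higher and 5 lay in between, with medians of −0.50 and −0.47. In C1q-negative cells 12 of the genes reached 1000 transcripts, of which 7 were lower, against 52.9% of all genes compared, and 1 was higher, with medians of −1.34 and −0.64. Nothing particular to macrophage genes is read from these counts.

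Past 1.5-fold in C1q-positive cells were 8 of the 13 listed macrophage genes compared, 6 lower and 2 higher. Of all genes compared in these cells, 45.1% were lower and 27.3% higher by that measure. Cd163, the receptor for hemoglobin bound to haptoglobin, had a log2 ratio of −2.46, and Timd4, a receptor for phosphatidylserine on dying cells, had −1.59. Adgre1, which encodes the macrophage antigen F4/80, had −1.45, and Spic, a transcription factor of red pulp macrophages, had −1.40. Vcam1, an adhesion molecule that binds erythroblasts, had −1.11, and Mrc1, the mannose receptor, had −0.83. Higher after PHZ in these cells were Marco, a scavenger receptor (1.08), and Folr2, a folate receptor (0.69). The other 5 lay inside the 1.5-fold band, as Ms4a7 did.

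The genes of the C1q chains also differed from one another. In C1q-positive cells C1qa had a log2 ratio of −0.76, C1qc of −0.50 and C1qb of −0.05, although the same cells were picked by the sum of these counts. The relatives of Ms4a7 on the panel were Ms4a6b and Ms4a6c, membrane proteins of the same family. Ms4a6c went from 5747 to 6140.3 CPM in C1q-positive cells (0.10, 0.07 to 0.12) and, like Ms4a7, was lower in C1q-negative cells (−1.29). Ms4a6b was lower in both, at −1.04 and −2.22. Aif1l, the paralog of Aif1, was scarce, with 65.7 and 39.2 CPM over all cells of the spleens.

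C1q-negative cells were divided further by lists of marker genes. Each cell went to the list with the highest count relative to that list's mean per cell in its own section, with at least 3 transcripts. These means differed between the spleens, so a class of the same name need not hold like cells in both. In the untreated spleen Aif1 was spread widely over the classes: 7999 CPM in cells classed by other macrophage genes, 5742 by monocyte and dendritic genes, 5689 by T cell genes, 5135 by neutrophil genes, 5041 by megakaryocyte genes, 4489.6 by erythroid genes (4101 to 4905) and 3502 CPM by endothelial genes. The 14368 unclassed cells had 4344 CPM. No list held B cell genes, so B cells had no class of their own. A class needed only 3 marker transcripts and RNA of adjacent cells was not removed, so the classes do not show which cell types held Aif1. The lowest class of at least 50 cells was 2.68-fold below the C1q-positive cells. Aif1 transcripts were seen in 61.6% of C1q-positive cells (median of 110.0 transcripts of all genes) and in 31.25% of the erythroid-classed cells (median of 87). After PHZ these shares were 36.0% (median of 135) and 5.54% (median of 115).

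After PHZ the C1q-positive cells were no longer above the classes of other macrophage and of monocyte and dendritic genes in Aif1 on the CPM scale. The gene had 3751 CPM in C1q-positive cells (3698 to 3805), 3792 CPM in cells classed by other macrophage genes, 3771 by monocyte and dendritic genes, with overlapping intervals, 2974 by T cell genes, 1586 by neutrophil genes and 1395 by endothelial genes. Per cell the C1q-positive cells stayed above, with 0.570 Aif1 transcripts against 0.251 and 0.374 in the macrophage and the monocyte and dendritic class, at median depths of 135, 56 and 86 transcripts. In the erythroid class, which held 1136 cells without and 26061 with PHZ, Aif1 was at 486 CPM, a log2 ratio of −3.21 to the untreated spleen (−3.36 to −3.06). The 5 erythroid genes had 7760.3 CPM without and 103228 CPM with PHZ over all cells. The same erythroid count thus weighed less against the other lists after PHZ, and the part of this in the ratio was not tested. In the monocyte and dendritic class the log2 ratio of Aif1 was −0.61 (−0.71 to −0.50).

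Ms4a7 had its highest level of any class in the C1q-positive cells of both spleens. In the untreated spleen cells classed by other macrophage genes followed with 1155 CPM, and T cell-classed cells had 571 and erythroid-classed cells 475 CPM. After PHZ the monocyte and dendritic class had 1342 CPM against 839.6 CPM in the untreated spleen (log2 ratio 0.68, 0.48 to 0.88), the reverse of the direction of Aif1 in the class of that name. Ms4a7 was lower after PHZ in the erythroid class (270.3 CPM, −0.81, −1.22 to −0.38) and the stromal class (345 against 551 CPM, −0.68, −0.93 to −0.43), as it was in the megakaryocyte class (−0.89) and in unclassed cells (−0.65). In the other 6 classes the interval of its log2 ratio included 0.

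**Figure D3:**
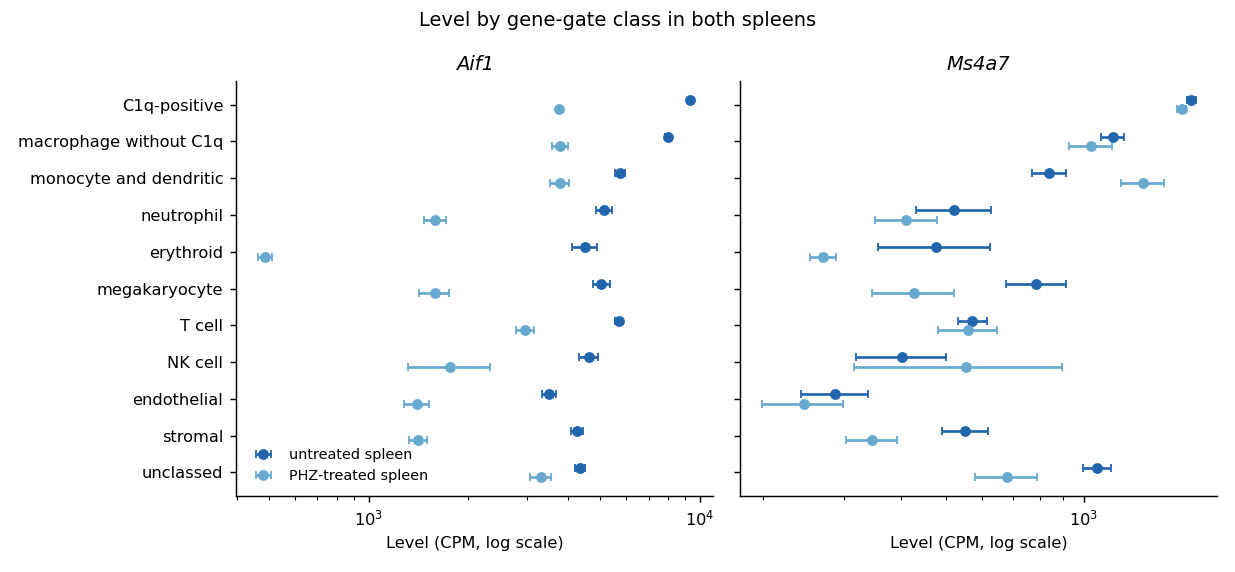
Levels of Aif1 (left) and Ms4a7 (right) in CPM on a log axis are shown for the C1q-positive cells and for the C1q-negative cells by class, in the untreated (dark) and PHZ-treated spleen (light), with 95% Poisson intervals; the granulocyte progenitor and hepatocyte classes are not drawn. Aif1 is lower after PHZ in each class drawn, most in the erythroid class (4489.6 to 486 CPM), and Ms4a7 is higher in the monocyte and dendritic class.

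The lower Aif1 after PHZ was not even across the section. Squares of 50 µm with at least 10 cells were ranked by the share of their transcripts from the 5 erythroid genes and divided into quartiles. In the PHZ-treated spleen Aif1 was 5644 CPM in the squares with the least erythroid RNA, 2373 and 1210.2 CPM in the next quartiles and 820.1 CPM in those with the most. The last value was 6.88-fold below the first. Ms4a7 went from 1461 over 1034 and 831 to 569 CPM, 2.57-fold. In the untreated spleen Aif1 was 6964, 6792, 7664 and 7899 CPM, and Ms4a7 was 1335, 1178, 1015 and 1261 CPM. Aif1 was therefore lower at each step up in erythroid share after PHZ, whereas in the untreated spleen it was highest where that share was highest.

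Inside the C1q-positive cells of the PHZ-treated spleen Aif1 was also lower at each step, both in CPM and per cell. There Aif1 was 6875, 3365, 1823 and 1406 CPM over the quartiles, and Ms4a7 was 1963, 1714, 1497 and 1149 CPM. In C1q-positive cells of the untreated spleen Aif1 was 9903, 9802, 9931 and 8765 CPM, and Ms4a7 was 2530, 1912, 1400 and 1508 CPM. Aif1 was thus lowest in CPM where the erythroid share was highest, unlike over all cells, but per cell it was highest there. Per cell, after PHZ, Aif1 averaged 0.886 transcripts per C1q-positive cell in the quartile with the least erythroid RNA, and 0.543, 0.314 and 0.231 in the others. Ms4a7 averaged 0.253, 0.277, 0.258 and 0.189 over the same quartiles, with no drop at each step. Without PHZ these averages were 1.18, 1.09, 1.16 and 1.21 for Aif1 and 0.301, 0.212, 0.163 and 0.208 for Ms4a7. With the erythroid genes left out of the total, Aif1 in C1q-positive cells after PHZ went from 6908 to 1657 CPM and Ms4a7 from 1972 to 1354 CPM. The first of these Aif1 values was 0.697 times that of the matching quartile of the untreated spleen, at 9905 CPM, and the last was 0.184 times the untreated 9015 CPM. For Ms4a7 these ratios were 0.779 and 0.873. The erythroid genes themselves differed between matching quartiles (5406 CPM in the lowest quartile after PHZ and 269 CPM in the untreated spleen), so the quartiles are not alike in the spleens.

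T cell genes marked the reverse of this gradient. In the PHZ-treated spleen Aif1 was 1269.7 CPM in the quartile of squares with the lowest T cell share and 4509 CPM in the highest, and Ms4a7 was 753 and 1347 CPM. In the untreated spleen Aif1 was 7146 and 6981 CPM and Ms4a7 1380.1 and 1143 CPM at these ends. Other rankings also gave gradients after PHZ. From the lowest to the highest quartile by C1q genes, Aif1 was 926 and 5423 CPM and Ms4a7 493 and 1531 CPM. By the chemokine gene Cxcl13, Aif1 was 1775 and 4070 CPM and Ms4a7 878 and 1128 CPM. In the untreated spleen Aif1 was 5785 and 8731 CPM by C1q genes and 7855 and 6559 CPM by Cxcl13.

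**Figure D4:**
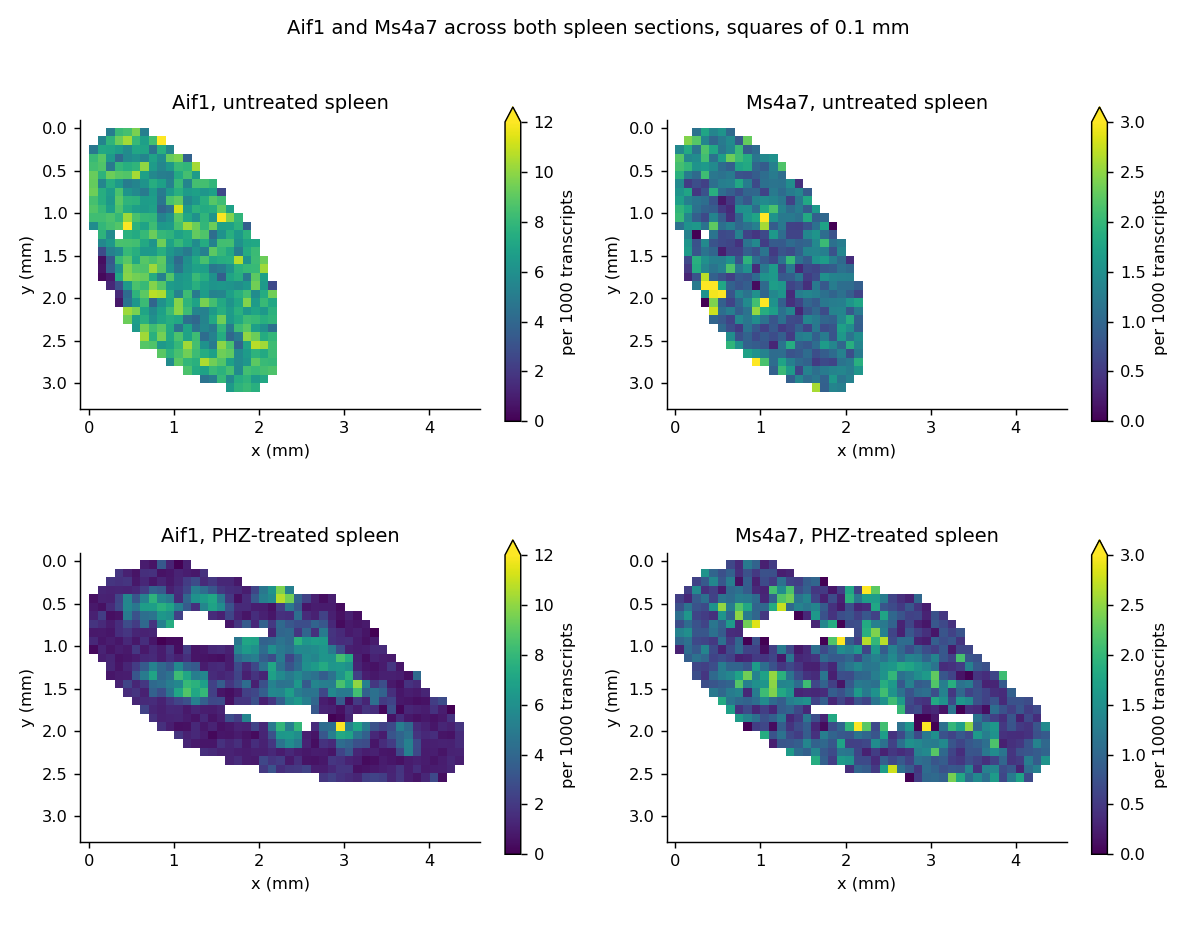
Each colored square is 0.1 mm wide and shows Aif1 (left) or Ms4a7 (right) per 1000 transcripts of the cells, on the same scale for the untreated (top) and PHZ-treated spleen (bottom), with axes in mm. In the untreated section Aif1 is spread over most squares, with squares near 0 along part of the left edge, and after PHZ it is gathered in a few patches.

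**Figure D5:**
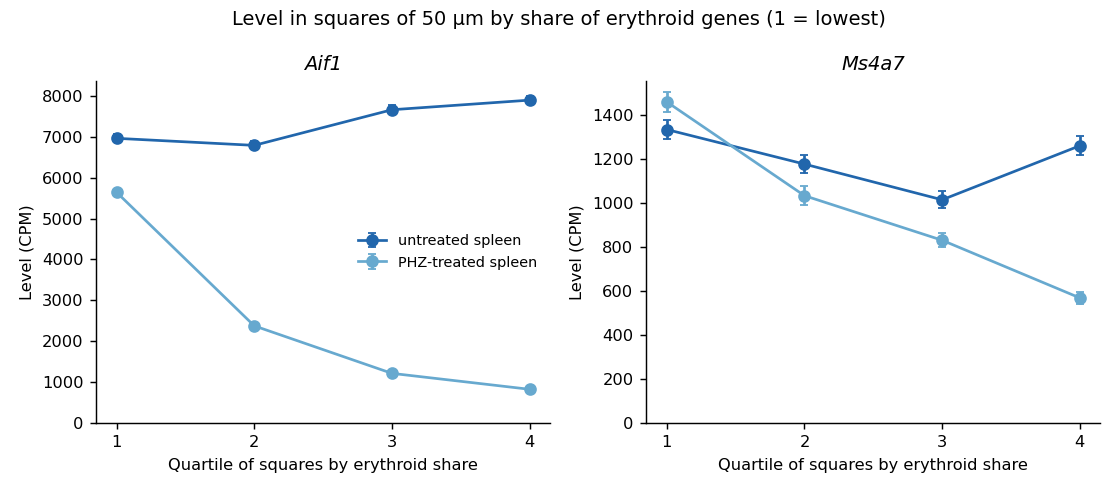
The level of Aif1 (left) and Ms4a7 (right) in CPM is plotted for quartiles of 50 µm squares, from the lowest (1) to the highest (4) share of erythroid genes, in both spleens with 95% Poisson intervals. After PHZ Aif1 goes from 5644 to 820.1 CPM and Ms4a7 from 1461 to 569 CPM, and neither is lower at every step in the untreated spleen.

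Single C1q-positive cells often held only 1 of the genes. Of those in the untreated spleen, 11.7% held both, 49.95% only Aif1, 4.69% only Ms4a7 and 33.7% neither. After PHZ the shares were 8.64%, 27.4%, 10.8% and 53.2%. Cells with only Ms4a7 thus were more frequent and cells with only Aif1 less frequent in the PHZ-treated section. This is no separate result, since these shares are tied to the shares of C1q-positive cells with each gene. Those were 61.6% and 36.0% for Aif1 and 16.4% and 19.4% for Ms4a7. Aif1 was seen more often beside Ms4a7 than without it, in 71.4% of C1q-positive cells with Ms4a7 and 59.7% of those without it in the untreated spleen, and in 44.5% and 34.0% after PHZ. The P8 marrow had 8.58% with both, 18.7% with only Aif1 and 14.8% with only Ms4a7, and the E14.5 liver 2.48%, 34.4% and 1.56%. Deeper cells are more likely to show both genes, and the part of depth in these shares was not tested.

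The other genes of those cells differed. In the PHZ-treated spleen the 9103 C1q-positive cells with only Aif1 and the 3585 with only Ms4a7 had medians of 136 and 147 transcripts. Among 259 genes, those most raised beside Aif1 were Cxcl13, a chemokine that draws B cells into follicles (5600.4 against 1373 CPM, log2 ratio 2.03), AU021092 (1.85), Lyve1, a hyaluronan receptor of lymphatic and some macrophage membranes (1.84), Igfbp3, a binding protein of insulin-like growth factors (1.71), and Clec14a, an endothelial lectin (1.64). Those most raised beside Ms4a7 were Ctsg (−1.88), Mpo (−1.36) and Elane (−1.15), which encode granule enzymes of neutrophil precursors, Cd163 (−1.36) and Fcnb, a ficolin of the lectin pathway of complement (−1.15).

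The contrast was another one in the untreated spleen. Cells with only Aif1 (19468) and only Ms4a7 (1827) had medians of 115 and 110 transcripts. Raised beside Ms4a7 were Pck1, an enzyme of gluconeogenesis (−2.69), Upk3b, a gene of mesothelium (−2.57), Retn, which encodes the adipocyte product resistin (−2.46), Car3, a carbonic anhydrase of muscle and fat (−2.46), and Igfbp6 (−2.35). Raised beside Aif1 were Gp2 (1.94), Stfa2l1 (1.26), Scin, an actin-severing protein (1.11), Cyp11a1, the first enzyme of steroid synthesis (0.93), and AU021092 (0.72), of which the first 4 rested on 12 to 20 transcripts in the smaller group. Squares were also ranked by Car3 and Retn, chosen because of these values. From the quartile of squares with the least to that with the most, Ms4a7 was 1253 and 1206 CPM, with overlapping intervals, and Aif1 was 7641 CPM (7536 to 7747) and 6762 CPM (6657 to 6868). Each quartile pooled 438 squares, so these values cannot show whether Ms4a7 was raised in a smaller patch. The map of 0.1 mm squares did show raised squares, picked here by their values. Adjoining squares held 126 Ms4a7 of 24436 transcripts, 63 of 17808, 35 of 11881 and 65 of 14544, against 12431 of 10351639 in the section. Their Aif1 counts were 73, 115, 50 and 113. Another raised square, apart from these, held 91 Ms4a7 and 216 Aif1 of 21968 transcripts. Whether these squares were rich in Car3 and Retn was not tested.

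The genes with the most similar pattern were sought over 45 combinations of class and section on the smaller panel, by Pearson's r of log2(CPM + 10), among 361 genes that made no class. Aif1 was closest to Il18, an inflammatory cytokine (r = 0.95), Ctss, a lysosomal protease of antigen-presenting cells (0.94), Slamf8, a receptor of myeloid cells (0.90), Epsti1, an interferon-induced gene (0.87), and Plbd1, a phospholipase-like protein (0.87). Ms4a7 was closest to Ctss (0.81), Il1b, an inflammatory cytokine (0.81), S100a4, a calcium-binding protein (0.81), Slamf7 (0.80) and Igf1, a growth factor (0.78). The r between Aif1 and Ms4a7 was 0.78. Classes of 1 section share its depth and its neighbors, so these values only describe likeness.

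In C1q-negative cells, the level also varied with the distance to the nearest C1q-positive cell center, though not as a steady fall in each section. Aif1 in the E14.5 liver was 514 CPM within 10 µm and 182 CPM at 20 to 40 µm, and in the P8 marrow 853 and 493 CPM. In the PHZ-treated spleen it was 1473 and 889 CPM. Beyond 40 µm it was 242 CPM in the E14.5 liver (175 to 327), from 42 transcripts, 186 CPM in the P8 marrow and 809.9 CPM in the PHZ-treated spleen (463 to 1315), from 16. Ms4a7 followed in these sections, from 40.9 to 20.7 CPM, from 438 to 211 CPM and from 471 to 268 CPM. The untreated spleen differed, with Aif1 at 5949.9 CPM within 10 µm (5866 to 6035), 4728 CPM at 20 to 40 µm and 5727 CPM beyond (5282 to 6199), and Ms4a7 higher away from C1q-positive cells, at 684 and 952 CPM.

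Positions of single transcripts were recorded for the smaller panel. Of the Aif1 transcripts in cells, 49.6% lay over the nucleus in the E14.5 liver, 49.5% in the P8 marrow, and 47.4% and 35.8% in the spleens without and with PHZ. For Ms4a7 the shares were 60.7%, 48.7%, 56.5% and 38.1%. The median of the genes compared was 54.9%, 48.1%, 58.9% and 50.9%, so both members lay below it in both spleens. The share of decoded transcripts that passed the quality score of 20 was 86.1% without and 68.6% with PHZ for Aif1 and 84.0% and 70.5% for Ms4a7, beside medians of 87.6% and 68.5% over genes. The pass rate was thus lower after PHZ for both, with a wider gap for Aif1 than for Ms4a7. Each gap was narrower than that between the medians over genes. Of the transcripts that passed, 82.8% without and 79.3% with PHZ had a score of at least 30 for Aif1, and 83.2% and 85.3% for Ms4a7.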

How the data were processed

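The authors deposited, for each Xenium section, whole-number counts of transcripts per gene and cell, not normalized, and for the smaller panel a quality score for each decoded transcript. Per the file headers these came from Xenium Onboard Analysis 1.7.1.0, with cells made by expanding nuclei, and 3.1.0.4, with boundary stains, for the larger panel. Counts hold transcripts with a score of at least 20, which a rebuild from the transcript tables matched. No correction for RNA of adjacent cells was made, and no doublet caller was run.

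Here cells with at least 5 detected genes were kept, and counts were summed per section or class and divided by the total gene counts, with Python 3.11.15, numpy 2.4.6, pandas 2.3.3 and scipy 1.17.1. Intervals cover counting error only. Shares were also computed after exact hypergeometric thinning to 50 counts, leaving out shallower cells (37084 of 38973 C1q-positive cells remained in the untreated and 31687 of 33235 in the PHZ-treated spleen). Interval and thinning code was tested on simulated data. Named genes were the members, the C1q genes, Ms4a and Aif1 relatives, the 5 genes of highest likeness, the 5 highest and 5 lowest beside 1 member only (at least 200 counts), and up to 8 macrophage genes with the largest change. The members and lists were chosen with earlier results of these data known, and 1 marker gene is not reported here on its own. Alternatives were counts per cell, other totals, gates, cell and quality filters, and transcripts over the nucleus.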

Additional observations from a re-analysis of the deposited data

How the results depend on the processing

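For the spleen ratios and the median C1q ratios, 66 values were computed under alternatives. Of these, 19 stayed inside the counting interval of the reported value, 42 left it with the same sign and 5 changed sign. The count includes medians over fewer sections than the reported medians cover. These are the C1q ratios over the nucleus and at a quality score from 30, and that of Ms4a7 against distant C1q-negative cells. Whether they left the interval can also reflect the sections left out. The Ms4a7 median over the nucleus counts as inside, although the ratio was above the reported one in each section of the smaller panel. All 5 sign changes were of Ms4a7 between the spleens. Over all cells its log2 ratio was 8.34e-05 per cell. In C1q-positive cells it was 0.22 per cell, 0.018 with C1q-positive cells taken from 10 counts, 0.078 at a quality score of 30 or more and 0.028 without the erythroid genes in the total, an alternative added after seeing the data. The cause was not tested.

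The others kept their sign. Per cell, Aif1 between the spleens was −1.28 over all, −1.03 in C1q-positive and −1.68 in C1q-negative cells, and Ms4a7 in C1q-negative cells was −0.49. With Hbb-bt left out of the total, Aif1 was −1.56, −1.29 and −2.01 in the same order, and Ms4a7 over all cells was −0.29. Without the erythroid genes Aif1 was −1.47, −1.22 and −1.89, and Ms4a7 was −0.19 over all and −0.69 in C1q-negative cells. With C1q-positive cells taken from 1 count, Aif1 was −1.53 in positive and −2.20 in negative cells, and Ms4a7 −0.21 and −1.37. From 10 counts Aif1 was −0.94 and −1.84, and Ms4a7 in negative cells −0.42. With only transcripts over the nucleus, Aif1 was −1.81 over all and −1.07 in C1q-positive cells, and Ms4a7 −0.70 and −0.021. At a quality score from 30, Aif1 in C1q-negative cells was −1.99, and Ms4a7 −0.24 over all and −0.73 in C1q-negative cells. Per mm2 of tissue, added after seeing the data, Aif1 was −2.07 and Ms4a7 −0.79.

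The median C1q ratio of Aif1 was 2.88 per cell, 1.79 with C1q from 1 count, 2.86 from 10 counts, 2.04 over the nucleus and 1.64 at a quality score from 30 (the last pair over the 4 sections of the smaller panel only), 1.85 with other macrophage genes as the gate and 2.81 against C1q-negative cells over 20 µm away. For Ms4a7 these were 3.27, 2.42, 3.26, 2.84, 2.36, 2.11 and 3.11, the last over 5 sections, since C1q-negative cells that far away in the E13.5 liver held no Ms4a7 transcript. No paired analysis was possible because each condition had 1 section and no result comes from a test. In the E13.5 liver the depth of 7 Ms4a7 transcripts limited every value of that gene.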
